A study of Mus musculus with 33 samples.

Results

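The excitatory synapse carries a thick protein sheet under its membrane, the postsynaptic density, and 9 genes of its scaffold were followed here in mouse frontal cortex: Shank1, Shank2 and Shank3, Dlgap1, Dlgap2, Dlgap3 and Dlgap4 (the SAPAP proteins), Dlg2 (PSD-93) and Dlg4 (PSD-95). They were picked by gene symbol, as the core scaffold families, from the 21565 genes of the deposited expression table, and all 9 were listed. Poly(A) RNA of the frontal cortex was sequenced from 33 adult male mice of C57BL/6J background, 8 to 19 weeks old, each housed above a slow treadmill, whose motion kept the deprived mice awake, placed in constant darkness 36 hr before the day and collected at Zeitgeber time 6 (hours after lights on).

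Wild-type (WT) mice were in control sleep (CS, sleeping at will, n = 6), in sleep deprivation (SD, 6 hr, n = 7), or in recovery sleep (RS, 4 hr of deprivation and then 2 hr in which they could sleep, n = 7). Mef2cf/f mice carry loxP sites around exon 11 of Mef2c, which encodes an activity-dependent transcription factor, and were taken in CS (n = 4) and SD (n = 3). Mef2cCKO mice carry the same floxed alleles and a Cre transgene driven by the Camk2a promoter, which recombines them in forebrain excitatory neurons, and were taken in CS (n = 3) and SD (n = 3). By the study's methods some Mef2cCKO mice also had a recombined allele in tail tissue, so that the deletion was not limited to those neurons in every animal, and no group carried Cre alone.

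Signalling at glutamatergic synapses depends on this scaffold. PSD-95 and PSD-93, membrane-associated guanylate kinases, bind NMDA receptors and the AMPA receptor auxiliary subunits through their PDZ domains. SAPAP proteins bind the guanylate kinase domain of the PSD-95 family, and the Shank proteins bind SAPAPs on one side and Homer and actin regulators on the other, so the 3 families form stacked layers from the membrane to the actin of the spine. Sleep and waking are known to be accompanied by changes in synaptic strength in cortex.

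The genes lie on 7 chromosomes of the GRCm38 build (mm10), all on the plus strand, and differ greatly in size. Dlg2 (ENSMUSG00000052572.17) covers chr7:90476672-92449247, 1973 kb from first to last exon, and is longer than 99.9% of the 11554 annotated genes whose CPM (read counts scaled to the library's mapped reads) reached 1 in every library. Dlgap1 (ENSMUSG00000003279.17, chr17:69969073-70821413) covers 852 kb and Dlgap2 (ENSMUSG00000047495.15, chr8:14095865-14847680) 752 kb. Shank2 (ENSMUSG00000037541.21, chr7:144001928-144424494) covers 423 kb and Dlgap4 (ENSMUSG00000061689.15, chr2:156613705-156764363) 151 kb. The remaining 4 are shorter: Dlgap3 (ENSMUSG00000042388.14, chr4:127169204-127237022) with 67.8 kb, Shank3 (ENSMUSG00000022623.16, chr15:89499623-89560261) with 60.6 kb, Shank1 (ENSMUSG00000038738.15, chr7:44310253-44360572) with 50.3 kb and Dlg4 (ENSMUSG00000020886.17, chr11:70016942-70047522) with 30.6 kb. Even so, they are longer than 50.8% (Dlg4) to 73.3% (Dlgap3) of those annotated genes. The transcripts of Dlgap3, Shank3 and Shank1 were among the most GC-rich measured, at 63.9%, 62.4% and 61.4% GC, whereas that of Dlg2 held 44.3% GC. Other annotated genes overlap 7 of the 9 spans (30 of them within Dlg2), none of which had a row in the table.

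RefSeq promoter windows (GRCm38.p6, 250 bases before to 50 after the transcription start) were matched for 6 of the 9 genes, 11 windows in all, and 3 are printed: those with the most GC and CpG and the one with an MEF2 match. Capitals mark the motif matches, on either strand: GGGCGG (the GC box) in Shank3 and Dlgap4, and an MEF2 site in Dlg2.
Shank3, chr15:89499358-89499657, plus strand: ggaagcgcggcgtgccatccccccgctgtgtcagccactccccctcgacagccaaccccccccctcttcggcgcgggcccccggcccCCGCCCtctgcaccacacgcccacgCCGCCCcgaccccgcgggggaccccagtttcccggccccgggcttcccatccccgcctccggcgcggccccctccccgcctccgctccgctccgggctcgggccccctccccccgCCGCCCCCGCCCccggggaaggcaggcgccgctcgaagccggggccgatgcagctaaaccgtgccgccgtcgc
Dlgap4, chr2:156720715-156721014, plus strand: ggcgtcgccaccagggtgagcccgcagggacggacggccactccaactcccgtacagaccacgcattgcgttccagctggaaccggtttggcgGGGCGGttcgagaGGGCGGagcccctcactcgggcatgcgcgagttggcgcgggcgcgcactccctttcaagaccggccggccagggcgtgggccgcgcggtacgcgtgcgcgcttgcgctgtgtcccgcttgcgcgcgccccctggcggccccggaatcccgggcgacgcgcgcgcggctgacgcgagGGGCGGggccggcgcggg
Dlg2, chr7:91090536-91090835, plus strand: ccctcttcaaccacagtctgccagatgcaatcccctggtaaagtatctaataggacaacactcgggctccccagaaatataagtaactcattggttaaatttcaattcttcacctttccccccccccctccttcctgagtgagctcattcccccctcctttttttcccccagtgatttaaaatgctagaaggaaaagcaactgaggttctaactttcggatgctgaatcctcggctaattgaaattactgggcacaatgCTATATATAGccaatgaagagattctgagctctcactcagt
The Shank3 window held 81.0% GC, 40 CpG dinucleotides and 4 GC boxes, 2 of them abutting. The Dlgap4 window held 76.3% GC, 50 CpG and 3 GC boxes, against medians of 52.7% GC and 7 CpG over all 32851 windows. The Dlg2 window held 44.7% GC and 3 CpG, and its MEF2 match began 9 bases past the start. For Dlg2, Dlgap4 and Dlgap3 the only windows matched were at internal starts, inside the gene. Of the 11 windows, 3 held a GC box (35.7% of all windows did), 1 an MEF2 site (3.19% of all), 1 the E-box CACGTG, in Dlgap1 (7.15% of all), and 0 the CRE TGACGTCA (1.79% of all). GC and CpG content did not divide the windows by response to SD: those of Dlgap3 (47.7% GC, 2 CpG) and the first of Dlg4 (46.3% GC, 5 CpG) were poorer in GC and CpG than the first of Dlgap1 (57.7% GC, 15 CpG). The 3 windows with a GC box were of genes that rose in SD (Shank3, Dlgap4 and the third of Dlg4), while those of Dlgap3 and the first of Dlg4 held none. The MEF2 and E-box matches lay in genes that fell, though the other 2 windows of Dlg2 held no MEF2 match. No window was matched for Shank1, Shank2 or Dlgap2. These matches describe letters in these windows only.

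Every scaffold gene was well expressed: the CPM of each reached 1 in all 33 libraries, and the smallest read count of any was 2364, for Shank3. Levels are given below as rescaled CPM, the deposited CPM divided by a median-of-ratios factor per library. Between genes they can be compared only per length, and the order then depends on the length used. Per kb of annotated exon, the mean level in WT CS was 307 ± 48.1 (SD, n = 6) for Dlg2, 165 ± 46.4 for Dlgap2 and 92.0 ± 11.1 for Dlgap1. These 3 long genes were separated from each other and from the rest by more than their SD, and they held the first 3 places in all 7 groups. Dlgap3 (26.2 ± 13.7), Dlg4 (19.1 ± 4.44), Shank2 (17.1 ± 3.28) and Dlgap4 (14.8 ± 2.86) followed, each differing from the next by less than the larger SD. Shank3 (10.1 ± 3.24) and Shank1 (8.66 ± 2.98) came last and did not differ beyond their spread. Per kb of gene span the order changed, with Dlg4 first in all 7 groups (8.28 ± 1.92 in WT CS), ahead of Dlg2 (2.54 ± 0.397), and Shank2 last (0.436 ± 0.0837). Whether reads from introns were counted is not stated in the sources used here; the 100 genes with the highest mean level in this table had a median span of 531 kb, against 29.7 kb over the genes whose CPM reached 1 in every library.

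**Figure D1:**
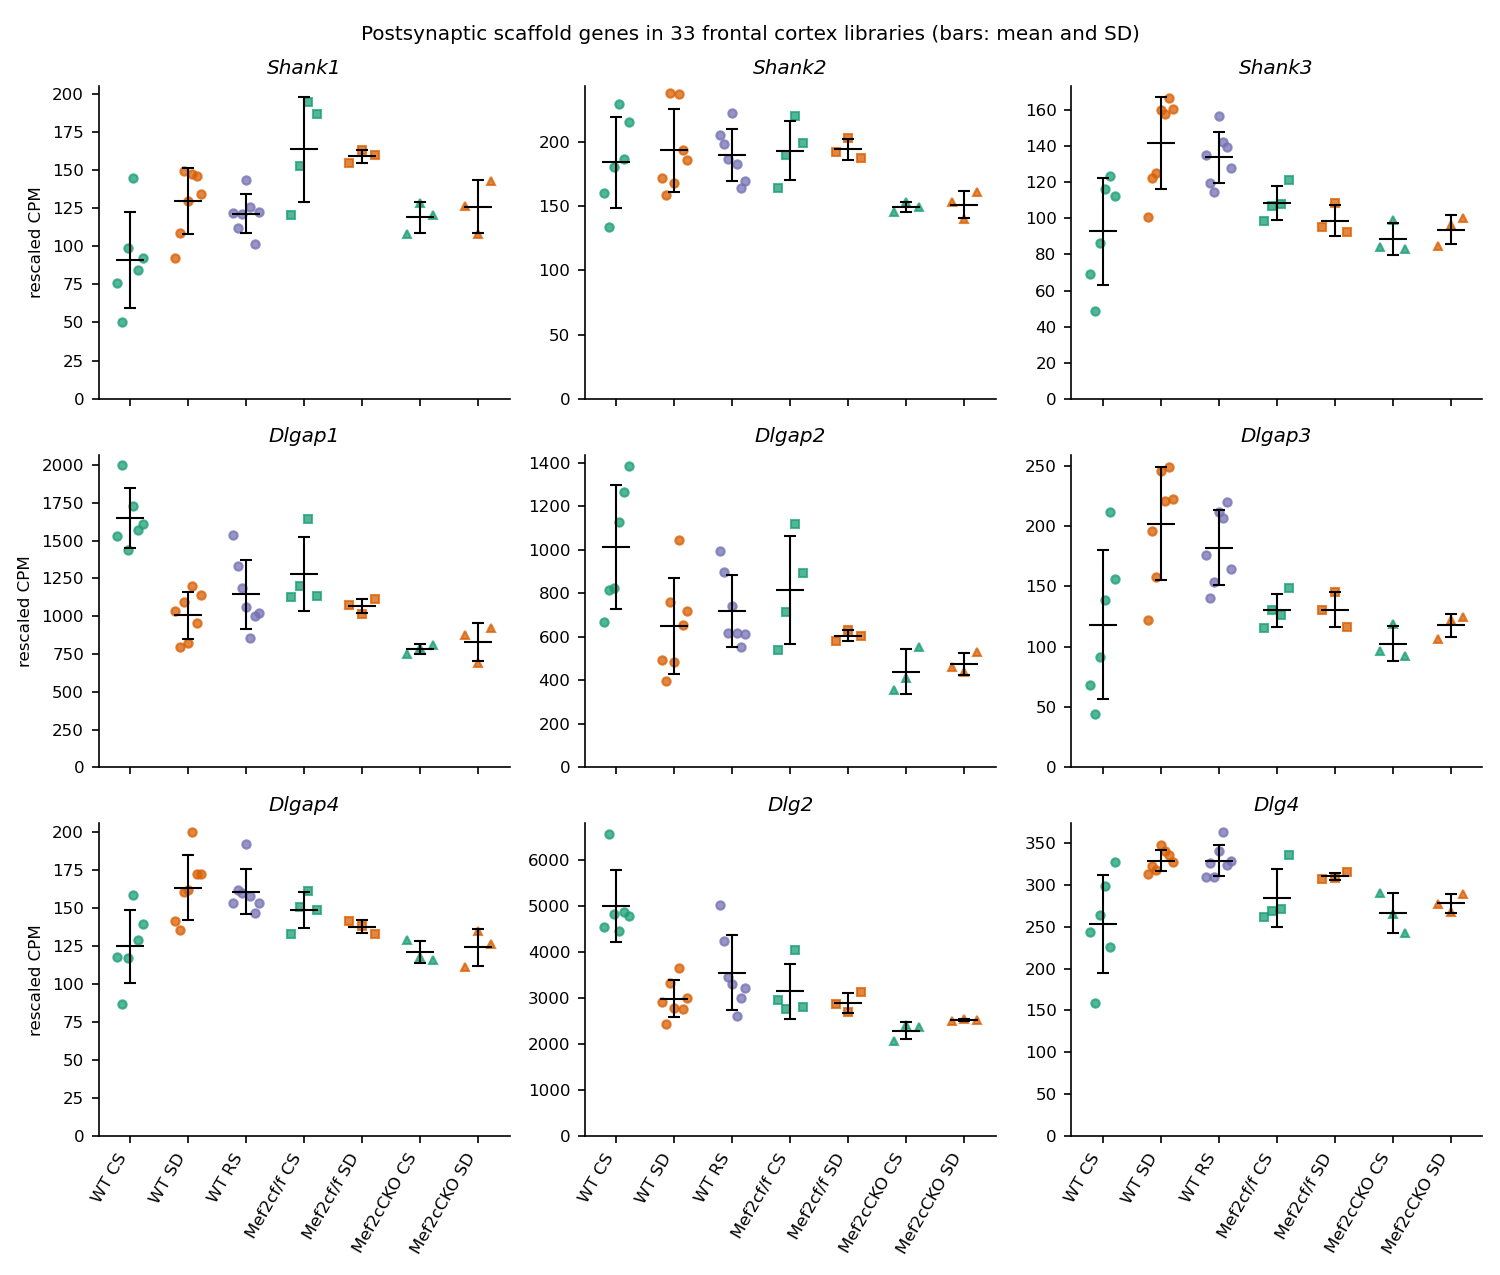
Rescaled CPM (y axis, from 0, a separate scale for each gene) of the 9 scaffold genes in the 7 groups (x axis); each point is a library and the bars give the mean and SD. In WT, Dlgap1 and Dlg2 in CS lie above every SD library, while Shank3, Dlgap3 and Dlg4 are lower in CS. In Mef2cf/f and Mef2cCKO the CS and SD points overlap, except for Dlgap1 in Mef2cf/f and Dlg2 in Mef2cCKO.

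Library totals ran from 18935045 to 249046089 reads. The CPM of each Mef2cf/f and Mef2cCKO library summed to 1000000 and that of each WT library to less, so the CPM of these 2 sets of libraries rest on differently defined totals. Differences were tested within each set, and the one test across them is of responses to SD. The markers of excitatory neurons (4 of 4 listed, none at 0 in any group) summed to 682 to 901 in WT CS and 723 to 894 in WT SD; 1 of the 4 was called lower in SD and 1 in RS, with medians of -0.49 and -0.40 over the 4. One WT CS library, replicate 2, stood apart: 23.3% of its CPM fell on the 220 genes of at least 500 kb, against 19.2% to 20.4% in the other WT CS libraries. Counted over whole Mef2c, the deleted exon is not seen: Mef2c was at 1080 to 1207 in Mef2cf/f CS and 957 to 1727 in Mef2cCKO CS (log2 difference 0.27 ± 0.20 SE, limma, adjusted p = 0.382), so the gene total does not check the genotype. Fewer cells of a type and less RNA per cell cannot be told apart in such bulk samples.

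In WT mice the scaffold genes divided between CS and SD on rescaled CPM. Other scalings, given below, changed which genes were called. After 6 hr of SD, 5 genes rose (Shank1, Shank3, Dlgap3, Dlgap4 and Dlg4), 3 fell (Dlgap1, Dlgap2 and Dlg2) and Shank2 did not pass the test. A gene was called where limma's adjusted p was at most 0.05 and the log2 fold change at least 0.3 in size. By that rule 45.1% of the 12913 genes tested were called, 24.6% higher and 20.5% lower. A large part of the transcriptome thus differed between the CS and SD libraries, and 8 of 9 stands against that background. The median log2 fold change of the 9 was 0.40 and that of all genes 0.04.

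The MAGUKs, which lie nearest the membrane, went opposite ways. Dlg2, encoding PSD-93, had a lowest, median and highest level of 4448, 4805 and 6565 in the 6 CS libraries and of 2436, 2922 and 3652 in the 7 SD libraries. Every SD library lay below every CS library, which was so for 15.1% of all genes in one direction or the other. The fall was 0.74 ± 0.12 (SE) on the log2 scale (adjusted p = 0.000855). Dlg4, encoding PSD-95, had 159, 254 and 327 in CS and 313, 327 and 347 in SD. The SD libraries were tightly grouped at the top of the CS range, with CS replicate 6 among them. Dlg4 rose by 0.41 ± 0.13 (adjusted p = 0.019), a call lost without CS replicate 2, the lowest of its group (0.29, adjusted p = 0.0188, below the size of 0.3).

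The SAPAP genes, which link PSD-95 to Shank, also split. Dlgap1 had 1439, 1591 and 2002 in CS and 797, 1032 and 1201 in SD, again without overlap between the groups. It fell by 0.72 ± 0.12 (adjusted p = 0.000843). Dlgap2 had 669, 974 and 1384 in CS and 395, 652 and 1044 in SD, and the groups overlapped. Its fall of 0.66 ± 0.22 passed (adjusted p = 0.0244), though not without SD replicate 4 (-0.60, adjusted p = 0.0502). Dlgap3, the SAPAP whose loss in mice is known for compulsive grooming, had 44.1, 115 and 211 in CS and 122, 220.6 and 249 in SD. CS replicates 1 to 3 lay below all SD libraries and the other CS libraries among them. The rise of 0.91 ± 0.30 (adjusted p = 0.0227) was lost without CS replicate 1 (0.79, adjusted p = 0.053). Dlgap4 had 86.9, 123 and 159 in CS and 136, 162 and 200.3 in SD, and rose by 0.40 ± 0.13 (adjusted p = 0.0187).

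Of the Shank genes, the deepest layer, Shank3 had 48.7, 99.3 and 124 in CS and 101, 158 and 167 in SD. Only the 2 lowest SD libraries reached into the CS range, and Shank3 rose by 0.66 ± 0.20 (adjusted p = 0.0159). Shank1 had 50.2, 88.1 and 145 in CS and 92.0, 134 and 149 in SD, and rose by 0.56 ± 0.19 (adjusted p = 0.0266); the call was lost without CS replicate 1 (adjusted p = 0.0545) or SD replicate 8 (adjusted p = 0.052). Shank2 had 134, 183 and 230.04 in CS and 159, 186 and 239 in SD. The groups covered nearly the same range, with a difference of 0.08 and a 95% confidence interval of -0.21 to 0.36 (adjusted p = 0.642).

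**Figure D2:**
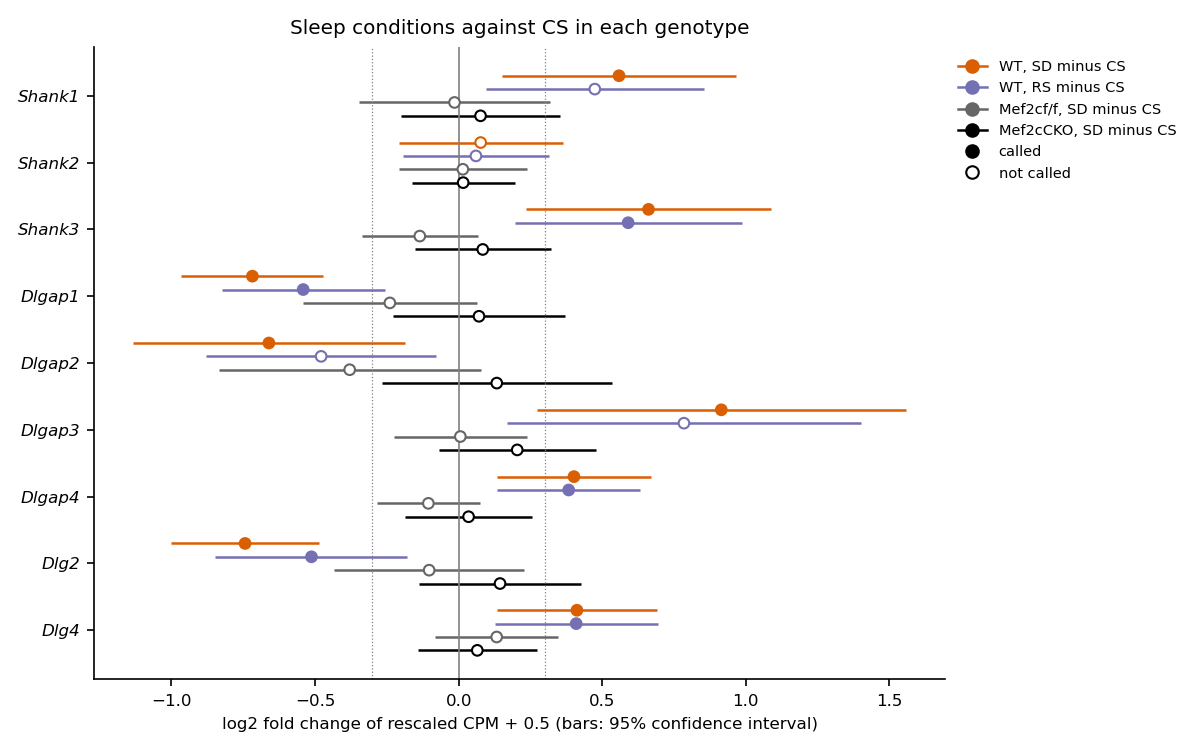
Log2 fold change (x axis) of each scaffold gene (rows) for WT SD and RS against CS, Mef2cf/f SD against CS and Mef2cCKO SD against CS, with 95% confidence intervals; filled points were called and dotted lines mark the size of 0.3. The WT points spread from -0.74 for Dlg2 to 0.91 for Dlgap3, and no point of Mef2cf/f or Mef2cCKO is filled.

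Among the 9, direction divided by gene span. The 3 genes that fell were the 3 longest, all of at least 752 kb. The 5 that rose spanned 30.6 to 151 kb. Those 5 nonetheless lay in span deciles whose median over all genes ran from 0.01 (that of Dlg4) to -0.24 (that of Dlgap4). Dlgap1 and Dlgap2 fell although the medians of their GC deciles were 0.21 and 0.44. Over all genes, the log2 fold change correlated with transcript GC content at a Spearman rho of 0.715 and with gene span at -0.556 (12445 genes, which share libraries and are not independent replicates). From CS to SD in Mef2cf/f mice these correlations were -0.319 and -0.238. In the decile of genes with the greatest span the median log2 fold change was -0.42 and 61.0% were called lower, and in the decile with the highest GC content it was 0.57 and 70.8% were called higher. The 220 genes of at least 500 kb took 20.3% ± 1.54 (SD) of the CPM in WT CS and 14.1% ± 1.75 in WT SD, and the mean GC content per transcript, weighted by CPM, was 48.0% ± 0.582 and 49.1% ± 0.247. Scaffold values corrected for both properties are given below.

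Set among genes of like structure, the members took different places. Within its decile of GC content, Dlgap1 and Dlgap2 each lay above only 0.402% of the genes, and Dlg2 above 5.14%. The risers were ordinary for their GC content, at the 48.4 percentile for Shank1, 62.2 for Shank3, 66.9 for Dlg4, 26.9 for Dlgap4 and 85.3 for Dlgap3. Within its decile of span the picture was reversed: Dlgap3 lay above 99.2%, Shank3 above 97.3%, Shank1 above 94.6%, Dlgap4 above 94.3%, Shank2 above 92.2% and Dlg4 above 85.6%, whereas Dlg2, Dlgap1 and Dlgap2 lay at the 15.2, 17.3 and 22.2 percentiles.

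**Figure D3:**
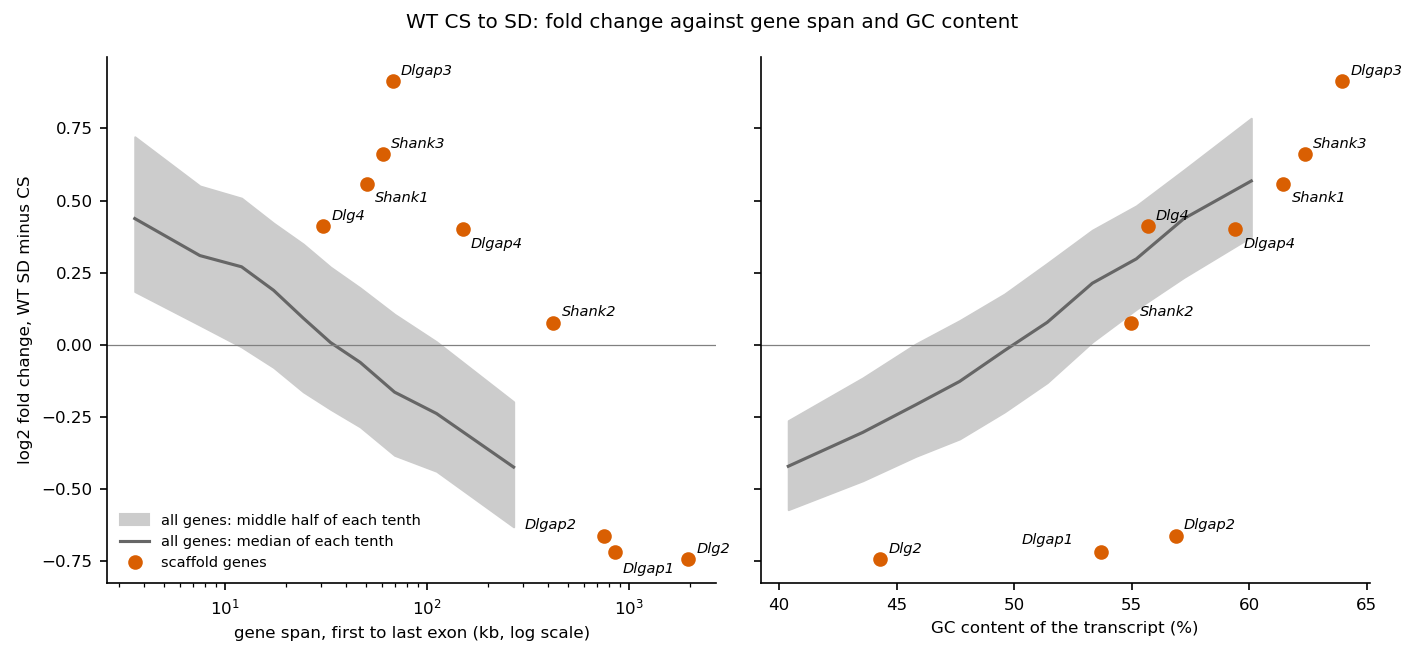
Log2 fold change from CS to SD in WT (y axis) against gene span in kb (left, log scale) and transcript GC content in % (right). The grey line and band give the median and interquartile range of all genes in each decile, drawn at its median; Dlgap1 and Dlgap2 lie far below the band on the right, and Dlgap3 and Shank3 above it on the left.

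Rescaling moved the members accordingly. On CPM as deposited all genes were shifted up, to a median of 0.30 from 0.04, and 7 scaffold genes were called, the same 5 risers with Dlgap1 (-0.44) and Dlg2 (-0.47). With a correction for GC content and transcript length, 3 were called, Dlgap2 (-1.04), Dlgap1 (-0.90) and Dlg2 (-0.42), and the risers lay between -0.08 (Dlgap4) and 0.24 (Dlgap3). With a correction for GC content and gene span, Dlgap2 (-0.44) and Dlgap1 (-0.32) were called and Dlg2 changed sign (0.24), as it did under quantile normalization (0.06), which called the 5 risers alone. Dlgap1 and Dlgap2 were lower in SD under all 5 scalings, and Shank1, Shank3, Dlgap3 and Dlg4 higher under all 5, though past the threshold only without a GC correction.

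**Figure D4:**
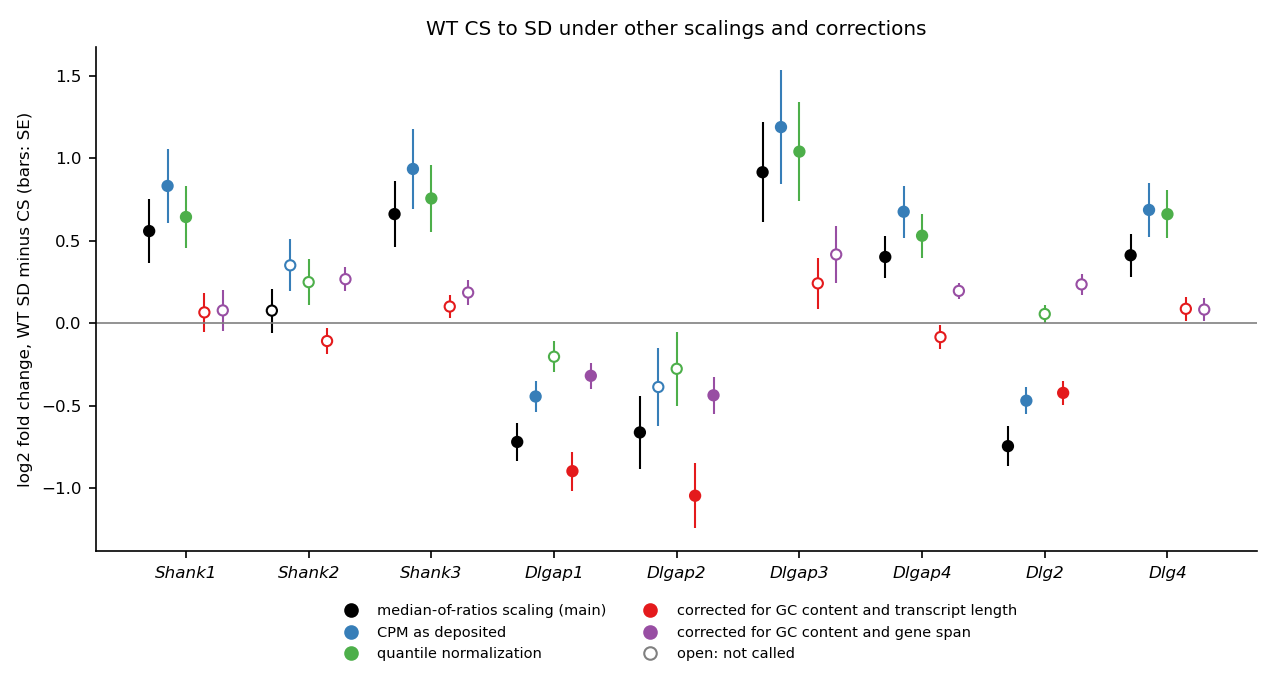
Log2 fold change from CS to SD in WT with its SE (y axis) for each scaffold gene (x axis) under 5 scalings of the same libraries; filled points were called. Dlgap1 and Dlgap2 stay below 0 throughout, Dlg2 crosses 0, and the 5 risers move to between -0.08 and 0.42 with either GC correction.

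RS mice, deprived for 4 hr and then given 2 hr in which they could sleep, differed from CS mice in 5 of the 9 genes. The comparison shares its CS libraries with that of SD. These calls stand against 17.5% of the 12752 genes tested: Shank3, Dlgap4 and Dlg4 higher (9.28% of all genes) and Dlgap1 and Dlg2 lower (8.22%). Dlg2 had a lowest, median and highest level of 2609.7, 3309.7 and 5022 in RS, and differed from CS by -0.51 ± 0.16 (adjusted p = 0.0422). RS replicate 1, in which 20.7% of CPM fell on the genes of at least 500 kb (12.1% to 18.3% in the other RS libraries), reached the CS range for Dlg2 and for Dlgap1, whose levels were 858, 1063 and 1538 and whose difference was -0.54 ± 0.13 (adjusted p = 0.0335). Dlg4 had 309, 326 and 363, a difference of 0.41 ± 0.13 (adjusted p = 0.0473).

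Shank3 had 115, 135 and 157 in RS and differed by 0.59 ± 0.19 (adjusted p = 0.0444), and Dlgap4 had 147, 158 and 192 and differed by 0.38 ± 0.12 (adjusted p = 0.0421). For both, every RS library lay above the CS median, and the groups overlapped, as they did for all 9 genes (3.72% of genes did not overlap). Dlgap3 (0.78, adjusted p = 0.0601), Shank1 (0.47, adjusted p = 0.062) and Dlgap2 (-0.48, adjusted p = 0.0686) missed the threshold, and Shank2 had 0.06 (95% confidence interval -0.19 to 0.32). All 5 calls lay near the threshold and were lost together without any one of 8 libraries (CS replicates 1, 2 and 3 and RS replicates 3, 4, 5, 6 and 12), with 0 called; with the GC and span correction 0 were called as well.

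Between SD and RS themselves, a comparison that shares its libraries with those above, no scaffold gene was called. The background was 0.0232% of 12921 genes called by limma; 683 genes had an unadjusted p under 0.05, and DESeq2 called 54 genes, none of them a scaffold gene. The 3 genes lower in SD had the largest differences, 0.23 for Dlg2, 0.18 for Dlgap2 and 0.18 for Dlgap1, toward CS, with adjusted p of 0.986 each. The other 6 lay between -0.13 and -0.00. For Dlg2 the 95% confidence interval was -0.07 to 0.54, which holds both 0 and most of the size of its fall in SD.

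In Mef2cf/f mice, SD called none of the 9 against 0.0403% of 12410 genes by limma; over all genes 2111 had an unadjusted p under 0.05 and DESeq2 called 466, none of them a scaffold gene. Dlg2 was at 2959, 2765, 4034 and 2808 in CS and 2868, 2691 and 3127 in SD. CS replicate 3 stood above the other 6 libraries, which overlapped, and the difference was -0.10 (95% confidence interval -0.43 to 0.23). Dlgap1 was at 1128, 1201, 1639.8 and 1136 in CS and 1073, 1018 and 1114 in SD. All SD libraries lay below all CS libraries (17.4% of genes did not overlap), by -0.24 ± 0.14 (adjusted p = 0.384). Dlgap2 had -0.38 ± 0.20 (adjusted p = 0.365), Dlg4 0.13 and Shank3 -0.14, and the remaining 4 lay between -0.11 and 0.01.

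Shank3, one of the clearest risers in WT, was at 98.4, 107, 108 and 121 in Mef2cf/f CS and 95.2, 109 and 92.7 in SD, with the groups interleaved. The test of the difference between the WT and Mef2cf/f responses called 15.1% of 13106 genes at an adjusted p of at most 0.05, 9.35% toward a higher value in Mef2cf/f, and 1 scaffold gene, Dlg2. Its response was 0.64 ± 0.20 higher in Mef2cf/f than in WT (adjusted p = 0.0408). Dlgap4 (-0.51, adjusted p = 0.0643), Shank3 (-0.80, adjusted p = 0.0646) and Dlgap1 (0.48, adjusted p = 0.0784) missed the threshold. The Dlg2 call was lost without any one of 10 libraries and its difference was -0.13 with the GC and span correction. The WT and Mef2cf/f libraries also have differently defined CPM totals, from which genotype cannot be told apart.

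In Mef2cCKO mice, SD called none of the 9 against 0.0234% of 12810 genes; 391 genes had an unadjusted p under 0.05 and DESeq2 called 25, none of them a scaffold gene. All 9 differences were small and above 0, from 0.02 for Shank2 to 0.20 for Dlgap3, each with an adjusted p of 0.998; under one or more other settings, left-out libraries included, those of all but Dlgap3 and Dlg2 lay below 0, at the lowest -0.11 (Dlgap4). Dlg2 was at 2072, 2418 and 2373 in CS and 2501, 2553 and 2514 in SD. The SD libraries lay above the CS libraries (9.05% of genes did not overlap) by 0.14, with a 95% confidence interval of -0.14 to 0.43. The response of Mef2cCKO minus that of Mef2cf/f passed for none (0.00778% of 12860 genes called; DESeq2 called none of the 9 either), and was largest for Dlgap2 at 0.51 (95% confidence interval -0.14 to 1.16).

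Under CS, 1 of the 9, Dlgap1, was lower in Mef2cCKO than in Mef2cf/f mice by the test. These libraries are those of the SD comparisons within each genotype. All 9 differences were below 0 (Dlg4 alone reached 0.01 on CPM as deposited and 0.02 under quantile normalization), with a median of -0.36 against 0.03 over all 12681 genes, of which 7.67% were called and 4.5% lower. Over all genes this difference correlated with gene span at a Spearman rho of -0.373. In the decile of greatest span, which holds Dlgap1, Dlgap2, Dlg2 and Shank2, the median was -0.21. There 15.4% were called lower and 3.08% higher. Within their span deciles the 9 lay between the 2.37 percentile (Dlgap2) and the 32.8 (Dlg4), with Dlg2 at 23.0 and Shank2 at 31.8. Genes of at least 500 kb took 14.7% ± 1.83 (SD) of the CPM in Mef2cf/f CS and 11.1% ± 1.01 in Mef2cCKO CS. Dlgap1 was at 748, 791 and 813 in Mef2cCKO and at 1128 to 1639.8 in Mef2cf/f, without overlap (26.9% of genes did not overlap). It differed by -0.69 ± 0.15 (adjusted p = 0.0285). Dlgap2 was at 355, 411 and 554 against 538, 713, 1119 and 891, with the highest Mef2cCKO library inside the Mef2cf/f range. Its difference of -0.86 ± 0.24 had an adjusted p of 0.0616.

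Shank2 was at 146, 153 and 149 in Mef2cCKO CS against 164, 189.8, 220.2 and 199.6 in Mef2cf/f CS. These groups did not overlap, and the difference was -0.36 ± 0.10 (adjusted p = 0.065). Dlg2 (-0.44, adjusted p = 0.125) and Dlgap4 (-0.29, adjusted p = 0.0788) did not overlap between genotypes either. Shank1 (-0.44, adjusted p = 0.122), Dlgap3 (-0.35, adjusted p = 0.0977) and Shank3 (-0.29, adjusted p = 0.1) overlapped, and Dlg4 differed least (-0.09, adjusted p = 0.63). The Dlgap1 call was lost without any one of Mef2cCKO replicates 5, 7 and 8 or Mef2cf/f replicate 2, while DESeq2 called 8 of the 9, all but Dlg4, against 16.5% of all genes (9.26% lower) by that tool. Other cells' markers differed as well: those of meningeal fibroblasts (2 of 4 called higher in Mef2cCKO, none at 0) summed to 32.7 to 38.3 against 19.6 to 23.5, and those of microglia (0 of 5 called, none at 0, median 0.74) to 159 to 419 against 132 to 153. In each of the inhibitory neuron, astrocyte and oligodendrocyte lists 1 marker was called higher, and 1 endothelial marker lower. Their part in the scaffold differences was not tested.

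After SD, 3 of the 9 were lower in Mef2cCKO than in Mef2cf/f mice by the test: Shank1, Shank2 and Dlgap2. The background was 15.1% of 12774 genes, 5.99% lower, and the median was -0.20 over the 9, all below 0 (Dlg2 reached 0.08 under quantile normalization and Shank3 0.00 on CPM as deposited), and 0.01 over all genes. The difference correlated with gene span over all genes at a Spearman rho of -0.231. In the decile of greatest span the median was -0.08, with 16.5% called lower and 15.3% higher. Within their span deciles the 9 lay between the 5.18 percentile (Shank1) and the 46.0 (Shank3). Shank2 was at 153, 139.8 and 161 in Mef2cCKO against 192, 204 and 188 in Mef2cf/f. The groups were well apart (40.3% of genes did not overlap), by -0.36 ± 0.07 (adjusted p = 0.0136). Shank1 was at 126, 108 and 143 against 154, 163 and 159.8, a difference of -0.34 ± 0.10 (adjusted p = 0.0436).

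Dlgap2 was at 459, 437 and 531 in Mef2cCKO SD against 581, 629 and 604 in Mef2cf/f SD, without overlap, and differed by -0.35 ± 0.09 (adjusted p = 0.03). Dlgap1 (-0.38, adjusted p = 0.0557), Dlg2 (-0.20, adjusted p = 0.185) and Dlg4 (-0.16, adjusted p = 0.108) also did not overlap but missed the threshold, and Dlgap3 (-0.15), Dlgap4 (-0.15) and Shank3 (-0.07) overlapped. With either GC correction 5 were called lower (Shank1, Shank2, Dlgap1, Dlgap2 and Dlgap3), against 8.88% of all genes lower with transcript length and 8.89% with gene span, and on CPM as deposited none was (-0.30 to 0.00), with a median over all genes of 0.09. Without Mef2cf/f SD replicate 1 none was called either. Between genotypes, markers of inhibitory neurons (3 of 3 called higher in Mef2cCKO after SD, none at 0) summed to 567 to 673 against 367 to 446, and those of microglia (4 of 5 higher, none at 0) to 181 to 196 against 144 to 151. Of the 4 excitatory neuron markers 1 was called lower (median -0.16). Their part in the scaffold differences was not tested.

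**Figure D5:**
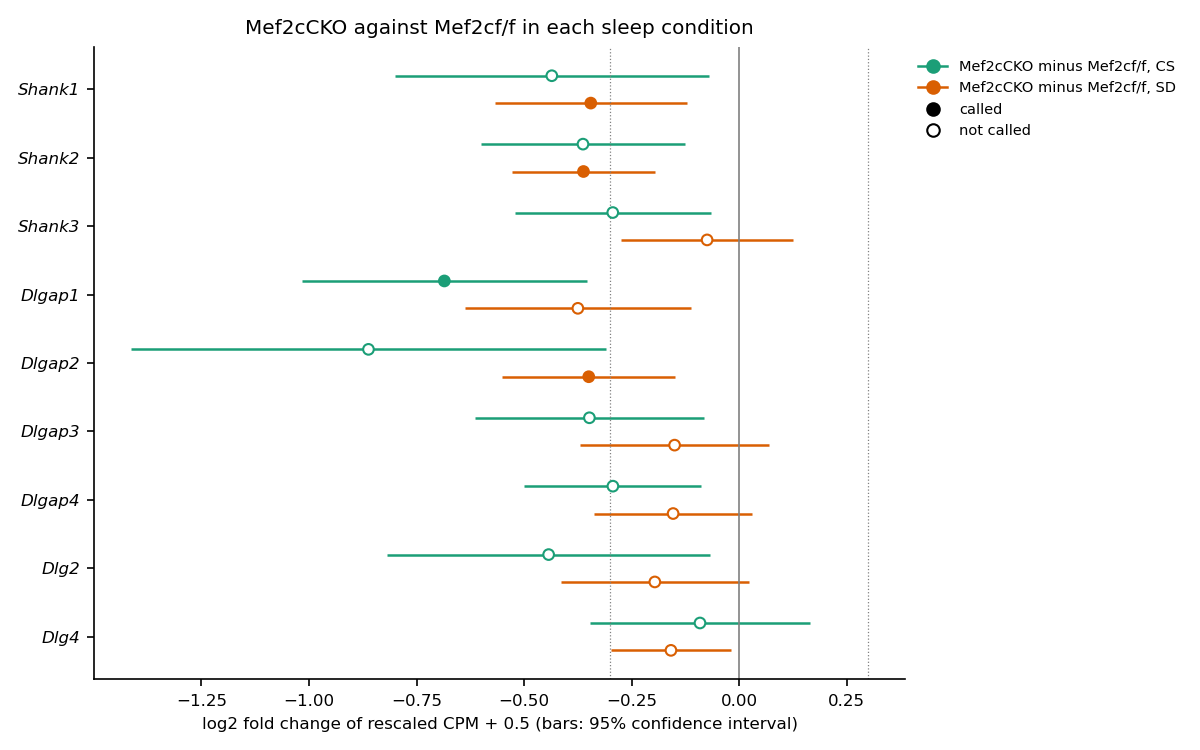
Log2 difference (x axis) of Mef2cCKO minus Mef2cf/f for each scaffold gene (rows) in CS and in SD, with 95% confidence intervals; filled points were called. All points lie below 0, from -0.86 for Dlgap2 in CS to -0.07 for Shank3 in SD, and 4 are filled.

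Other proteins of the postsynaptic density, 30 genes listed from general knowledge, were measured in the same libraries. From CS to SD, 8 rose and 7 fell, with a median of 0.00, a share near the 45.1% of all genes (24.6% higher, 20.5% lower). Of the 12 further scaffolds, Homer3 (0.70), which binds Shank, and Lzts3 (0.78) and Begain (0.68), which bind Shank3 and the guanylate kinase domain of PSD-95, rose. Dlg1 (-0.48), the SAP97 paralog of PSD-95, Lrrc7 (-0.80), Magi2 (-0.81) and Tanc2 (-0.71) fell. Of the 9 actin linkers, Baiap2 (0.54), which joins Shank to actin regulators, rose, while Wasf1 (-0.39) and Kalrn (-0.51), the latter an exchange factor of spine growth, fell. Among the signalling genes, Camk2b (0.35), a subunit of the kinase CaMKII, and Nos1 (0.57), whose product binds PSD-95, rose and Cnksr2 (-0.98) fell, and the dynein light chain gene Dynll2 rose (1.05). With the GC and transcript length correction Begain, Baiap2 and Camk2b changed sign and 7 of the 15 calls were kept. With the GC and gene span correction 3 were kept, on CPM as deposited the counts were 14 higher and 4 lower, and Kalrn changed sign under quantile normalization.

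In RS, 7 of the 30 were higher and 5 lower than in CS (median -0.02, 17.5% of all genes), of which 0 were kept with the GC and gene span correction. From SD to RS, in Mef2cf/f SD, in Mef2cCKO SD and in the difference of the latter 2 responses 0 were called. In the difference of WT and Mef2cf/f responses 8 were higher and 1 lower in Mef2cf/f (15.1% of all genes). With the GC and gene span correction 1 of these calls was kept, and Abi1 changed sign with either GC correction. Between genotypes the count in CS was 2 higher and 5 lower (median -0.08; 7.67% of all genes). Kalrn (-0.88), Magi2 (-0.73), Dynll2 (-0.60), Iqsec2 (-0.45) and Tanc2 (-0.37) were lower in Mef2cCKO, and Nos1 (0.90) and Dynll1 (0.60) higher. After SD it was 3 higher and 6 lower (median -0.14; 15.1% of all genes), with Kalrn (-0.51), Magi2 (-0.46), Iqsec2 (-0.40), Cyfip2 (-0.38), Dlg1 (-0.37) and Tanc2 (-0.34) lower and Nos1 (1.46), Homer3 (0.68) and Dynll1 (0.49) higher. Of these calls between Mef2cCKO and Mef2cf/f, none changed sign under the 4 other scalings.

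Markers of other cells moved with SD in WT as well. Those of striatal neurons (5 of 6 listed, none at 0, 2 of 5 called higher in SD, median 0.20) summed to 214 to 473 in CS, 349.6 to 713 in SD and 375 to 595 in RS. Those of meningeal fibroblasts (4 of 4 listed, none at 0, 2 of 4 higher in SD) summed to 8.38 to 34.1 in CS, 37.0 to 62.8 in SD and 13.6 to 36.9 in RS. Of the inhibitory neuron markers, 2 of 3 were called higher in SD and in RS. In SD, 1 astrocyte and 1 endothelial marker were called higher, 1 oligodendrocyte marker lower, and 1 microglia marker each way. Over all genes 24.6% were called higher and 20.5% lower in SD, and 9.28% higher in RS. The part of cell composition in the rises of Dlgap3, Shank3 and the others was not tested.

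Profiles over all 33 libraries were compared by the root mean square difference of log2 values after each gene was centred on its mean, among 11569 other genes. Nearest to Dlg2 came Plcb1 (0.0738), Negr1 and Macrod2; to Dlgap1, Eml6 (0.109), Anks1b and Ctnnd2; and to Dlgap2, Frmd4a (0.133), Xkr6 and Asic2. Shank3 was nearest to Speg (0.0939), Pitpnm2 and Xylt2, Dlgap3 to Tnk2 (0.147), Kcnh3 and Adgrb2, and Shank1 to Ppard (0.189), Prdm11 and Zc3h4. Dlgap4 was nearest to Prrc2b (0.103), Dlg4 to Gtpbp1 (0.104) and Shank2 to Med13l (0.105). Among the 9 themselves the closest pair was Dlg2 and Dlgap1 (0.145), then Dlg4 and Dlgap4 (0.15), while Dlg2 and Dlgap3 lay farthest apart (0.731). These distances are descriptions over libraries that share the treatments above, and they span both sets of libraries, whose CPM totals are differently defined.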

How the data were processed

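Libraries of 33 mice were made with a stranded poly(A) kit. The authors trimmed reads with Trimmomatic, aligned them to mm10 (per the labels) with STAR, counted uniquely mapped reads per gene with HTSeq and converted counts to CPM with edgeR. The CPM were used as deposited; their strand setting and counted feature are not given in the sources used here. All 711645 values that were checked were whole reads within 0.01 (100%), which gave the count tests.

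The 9 genes, the 30 partners and the marker lists were chosen with earlier results of these data known. Each library's CPM were rescaled by a median-of-ratios factor (33 libraries together), taken as log2(value + 0.5) and fitted with limma 3.58.1 (R 4.3.3, eBayes with trend) in the compared groups alone; interactions were fitted on 4 groups. A gene was tested where its CPM reached 1 in every replicate of a compared group. Benjamini-Hochberg adjustment ran over all genes tested, and adjusted p is limma's unless another tool is named. Calls needed an adjusted p of at most 0.05 and, except for interactions, a log2 fold change of at least 0.3 in size. Alternatives were pseudocounts of 0.1 and 1, no filter or CPM of at least 5, CPM as deposited, quantile normalization, corrections for GC content with transcript length or gene span, edgeR 4.0.16, DESeq2 1.42.0, a replicate block and each library left out. The scripts were tested on simulated data. Partners named in the text are those called; items of the partner and marker lists that are counted but not named are not reported here. Genes near each scaffold gene were the 3 closest profiles.

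Replicates are separate libraries: the 72 pairs differed by a chi-square per degree of freedom of 11.9 to 517. The labels number the samples of a group without naming animals, so p-values measure the spread between these samples. Whether equal replicate numbers pair the samples is not given by the labels. Deviations of same-numbered libraries correlated at -0.30 to 0.65 in WT CS and SD (3 of 5 pairs over 0.1), 0.05 to 0.66 in WT CS and RS (4 of 6), -0.73 to 0.35 in WT SD and RS (2 of 5), 0.05 to 0.29 in Mef2cf/f (2 of 3) and 0.07 to 0.16 in Mef2cCKO (1 of 2). In the same order, the same-numbered library was the best match in 1 of 5, 2 of 6, 1 of 5, 2 of 3 and 2 of 2 pairs. These values do not settle whether the numbers pair the samples.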

Additional observations from a re-analysis of the deposited data

Results flagged for a closer look

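In 5 of 36 group-and-gene sets of 4 to 10 libraries, 1 library lay far from the rest (chance alone flags about 1 in 20). Dlg2 in WT CS replicate 2 was at 6565, against 4448 to 4862 in the other CS libraries; without it 7 scaffold genes were called from CS to SD in WT, and 0 from CS to RS. In Mef2cf/f CS replicate 3, Dlg2 was at 4034 (others 2765 to 2959) and Dlgap1 at 1639.8 (others 1128 to 1201); in that library 17.4% of CPM fell on the genes of at least 500 kb, against 13.4% to 14.3% in the others of its group. In both libraries Dlg2, Dlgap1 and the share of all long genes were high together, whereas in WT CS replicate 2 Dlgap2 (815) was below its group's median (974) and Shank2 (134) was the lowest of its group, and what set them apart was not tested. Dlg4 was at 335 in Mef2cf/f CS replicate 4 (others 261 to 271), and Dlgap4 at 192 in WT RS replicate 4 (others 147 to 162).

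The response of Dlg2 to SD differed between Mef2cf/f and WT mice by 0.64 on the log2 scale in the interaction test, with -0.74 in WT and -0.10 in Mef2cf/f.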

How the results depend on the processing

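Scaffold genes called from CS to SD in WT (8) numbered 5 under quantile normalization, 3 with the GC content and transcript length correction, 2 with that for GC content and gene span (the latter chosen after seeing the data), 0 with the replicate block and 3 with block and GC correction together, and 6 to 8 with each library left out. From CS to RS (5) they numbered 3, 2, 0 and 2 under quantile normalization, the 2 GC corrections and block with GC correction, 0 with no filter, 2 with edgeR and 0 to 6 with each library left out. Between genotypes in CS (1) they numbered 0 under quantile normalization, 0 with no filter, 4 and 2 with the GC corrections, 8 with DESeq2 and 0 to 4 with libraries left out: 0 without Mef2cCKO replicate 5, 7 or 8 or Mef2cf/f replicate 2, and 4 without Mef2cf/f replicate 1. In SD (3) they numbered 0 on CPM as deposited and under quantile normalization, 5 with each GC correction and 0 to 4 with libraries left out: 0 without Mef2cf/f replicate 1, 1 without Mef2cf/f replicate 2 or 3 or Mef2cCKO replicate 5 or 6, and 4 without Mef2cCKO replicate 7. For the difference of WT and Mef2cf/f responses (1) they numbered 2 on CPM as deposited, 0 with no filter, 0 with the GC content and gene span correction, 0 with the block alone or with the GC correction, and 0 to 3 with libraries left out. For SD to RS, SD in Mef2cf/f, SD in Mef2cCKO and the difference between those, they were 0 to 0 with libraries left out.

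Among values called in the main test, signs turned for Dlg2 under quantile normalization (0.056 in SD, 0.071 in RS, -0.075 in the difference of WT and Mef2cf/f responses) and with the GC content and gene span correction (0.24, 0.17 and -0.13), and for Dlgap4 with the GC content and transcript length correction (-0.083 in SD, -0.027 in RS) and with block and GC correction (-0.094 and -0.011). The cause was not tested. Values not called turned as well: in the difference of WT and Mef2cf/f responses Shank1 (to 0.09), Shank2 (0.22), Dlgap4 (0.053) and Dlg4 (0.17) reached above 0 with a GC correction and Dlgap2 (-0.097) fell below it under quantile normalization. Of the single-gene values under alternatives, 774 kept direction and side of the threshold, 58 lost and 28 gained a call, and signs turned in 10 that were called and 66 that were not.

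The replicate block used the labels' numbers, and whether these pair the samples is not known. In WT it moved the calls over all genes from 5826 to 287 for SD and from 2232 to 4279 for RS. There, 1 of 5 and 2 of 6 libraries correlated best with their own number. No paired analysis was possible for Mef2cCKO against Mef2cf/f because those groups share fewer than 2 replicate numbers.

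Depth did not limit these genes, since the smallest count was 2364 reads; groups of 3 or 4 libraries leave confidence intervals as wide as -1.41 to -0.31 for Dlgap2 between genotypes in CS.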
